A study of Mus musculus with 2 samples.

Results

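B cells were looked for among CD11b+ leukocytes that had been sorted from malignant pleural effusion, the fluid that collects around the lung when a tumour grows in the chest. They were chosen by a gate on UMI counts, where a UMI is a molecular tag that marks 1 captured transcript. A cell barcode was kept when it held at least 300 genes and at most 10% mitochondrial UMIs. A kept barcode was a member when Cd79a, Cd79b and Ms4a1 together held at least 2 UMIs (called B UMIs here), Cd3d, Cd3e and Cd3g held 0, and S100a8, S100a9 and Retnlg took under 2% of its UMIs. The gate found 65 cells among 3963 kept barcodes.

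Mice were injected into the pleural space with 100 µl of buffer that held 150000 cells of LLC, a mouse lung carcinoma line. Their pleural fluid was taken on day 10. Live CD45+ CD11b+ cells were sorted from it and profiled with the version 2 3′ droplet kit. The deposited data hold 2 libraries of this 1 condition and no control, and the labels give neither strain, sex nor age and do not say whether the libraries are separate animals. Y-linked transcripts without Xist were found in 714 of the 992 other barcodes of library 1 and Xist in none of them, while Xist without Y-linked transcripts was found in 1014 of the 1347 of library 2. Another 73 of these 1347 held Y-linked transcripts only and 62 held both kinds, and of the 13 B cells of library 2 with few C1q UMIs 10 held Xist only and 1 Y-linked transcripts only. Library 1 held 1116 kept barcodes and library 2 held 2847, with 11543829 and 20322996 gene UMIs in all deposited barcodes. The libraries shared 4 barcodes, none of which was a member. No doublet caller was run.

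B cells carry an immunoglobulin receptor that signals through CD79a and CD79b, and most of them lack CD11b, the integrin alpha M chain encoded by Itgam. The serous cavities are the exception: the pleural and peritoneal B-1 cells, a self-renewing lineage that makes natural antibody, carry CD11b in the mouse. They are told from the recirculating B-2 cells by such genes as Bhlhe41 and Zbtb32, transcription factors of the B-1 lineage, and by the absence of Fcer2a (CD23) and Cr2 (CD21). Some B-1 cells carry CD5 (B-1a) and others do not (B-1b).

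Members made up 38 of 1116 kept barcodes in library 1, or 3.41% (exact Clopper-Pearson 95% interval 2.42 to 4.64), and 27 of 2847 in library 2, or 0.948% (0.626 to 1.38). The intervals cover counting error only, and they did not overlap. The neutrophil gate, the barcodes at or over the 2% limit, took 86 barcodes in library 1 and 1473 in library 2. Over barcodes outside that gate the share was 3.69% (2.62 to 5.03) and 1.97% (1.30 to 2.85), and these intervals overlapped. With 1 library on each side there is no test of the difference between the libraries. The lowest total of a deposited barcode was 1999 UMIs in library 1 and 500 in library 2. The neutrophil gate of library 2 had a median of 1334 UMIs, below the lowest total of library 1. The shares of the 2 libraries thus rest on barcodes of unlike lowest depth, and the part of this in their difference was not tested.

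The gate held 4 kinds of cell, which were told apart by their B UMIs and by C1qa, C1qb and C1qc, complement genes of macrophages. Of the 65 members, 46 had at most 5 C1q UMIs (31 in library 1 and 15 in library 2) and 19 had more (7 and 12). Among the 46, 39 cells (26 and 13) had 3 or more B UMIs, and their lowest, median and highest values were 8, 27 and 70. The other 7 cells (5 and 2) sat on the threshold with exactly 2 B UMIs, all from Cd79b. None of these 7 held a UMI of Ly6d, Mzb1, Jchain, Ebf1 or Bank1, and each held 58 to 391 UMIs of Lyz2, the lysozyme of macrophages and monocytes. In the 39 cells Lyz2 was at 0 to 4 UMIs. Just outside the gate, 54 barcodes of library 1 and 65 of library 2 had 1 B UMI, of which 48 and 60 were Cd79b.

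**Figure D1:**
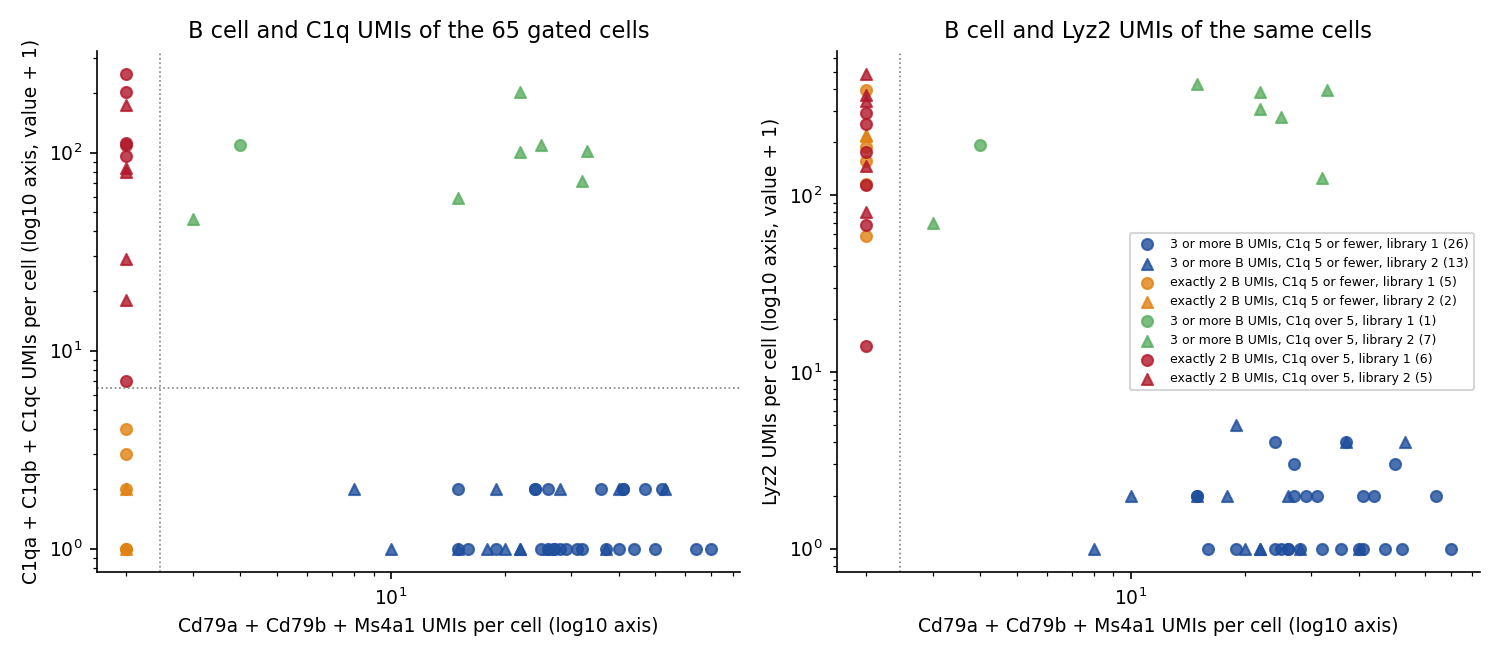
Each point is 1 of the 65 gated cells, with its Cd79a, Cd79b and Ms4a1 UMIs on the x axis and its C1q UMIs (left) or Lyz2 UMIs (right) plus 1 on the y axis, all axes being log10; circles are library 1, triangles library 2, and dotted lines part 2 from 3 or more B UMIs and 5 from more C1q UMIs. The 39 cells with 3 or more B UMIs and few C1q UMIs lie apart from all others, at 8 to 70 B UMIs and at most 4 Lyz2 UMIs.

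The 19 cells with over 5 C1q UMIs also fell into 2 kinds. In 8 of them (1 in library 1 and 7 in library 2) the B UMIs numbered 3 to 33, beside 45 to 202 C1q UMIs and 69 to 422 Lyz2 UMIs, and 7 of the 8 held at least 2 of the markers Ly6d, Mzb1, Jchain, Ebf1 and Bank1. The median total of the 8 was 22903 UMIs, against 5467 in the 39 cells and 11590 and 14126 in the macrophage gates of the 2 libraries (outside the neutrophil gate, with over 5 C1q UMIs, no B UMI and no Cd3 UMI). These 7 of the 8 therefore held B cell and macrophage transcripts in 1 barcode, and whether they are pairs of cells was not tested. The eighth, the cell of library 1, held Cd79b alone of the 3 gate genes and none of the 5 markers. The other 11 had exactly 2 B UMIs and none held 2 of the 5 markers.

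**Figure D2:**
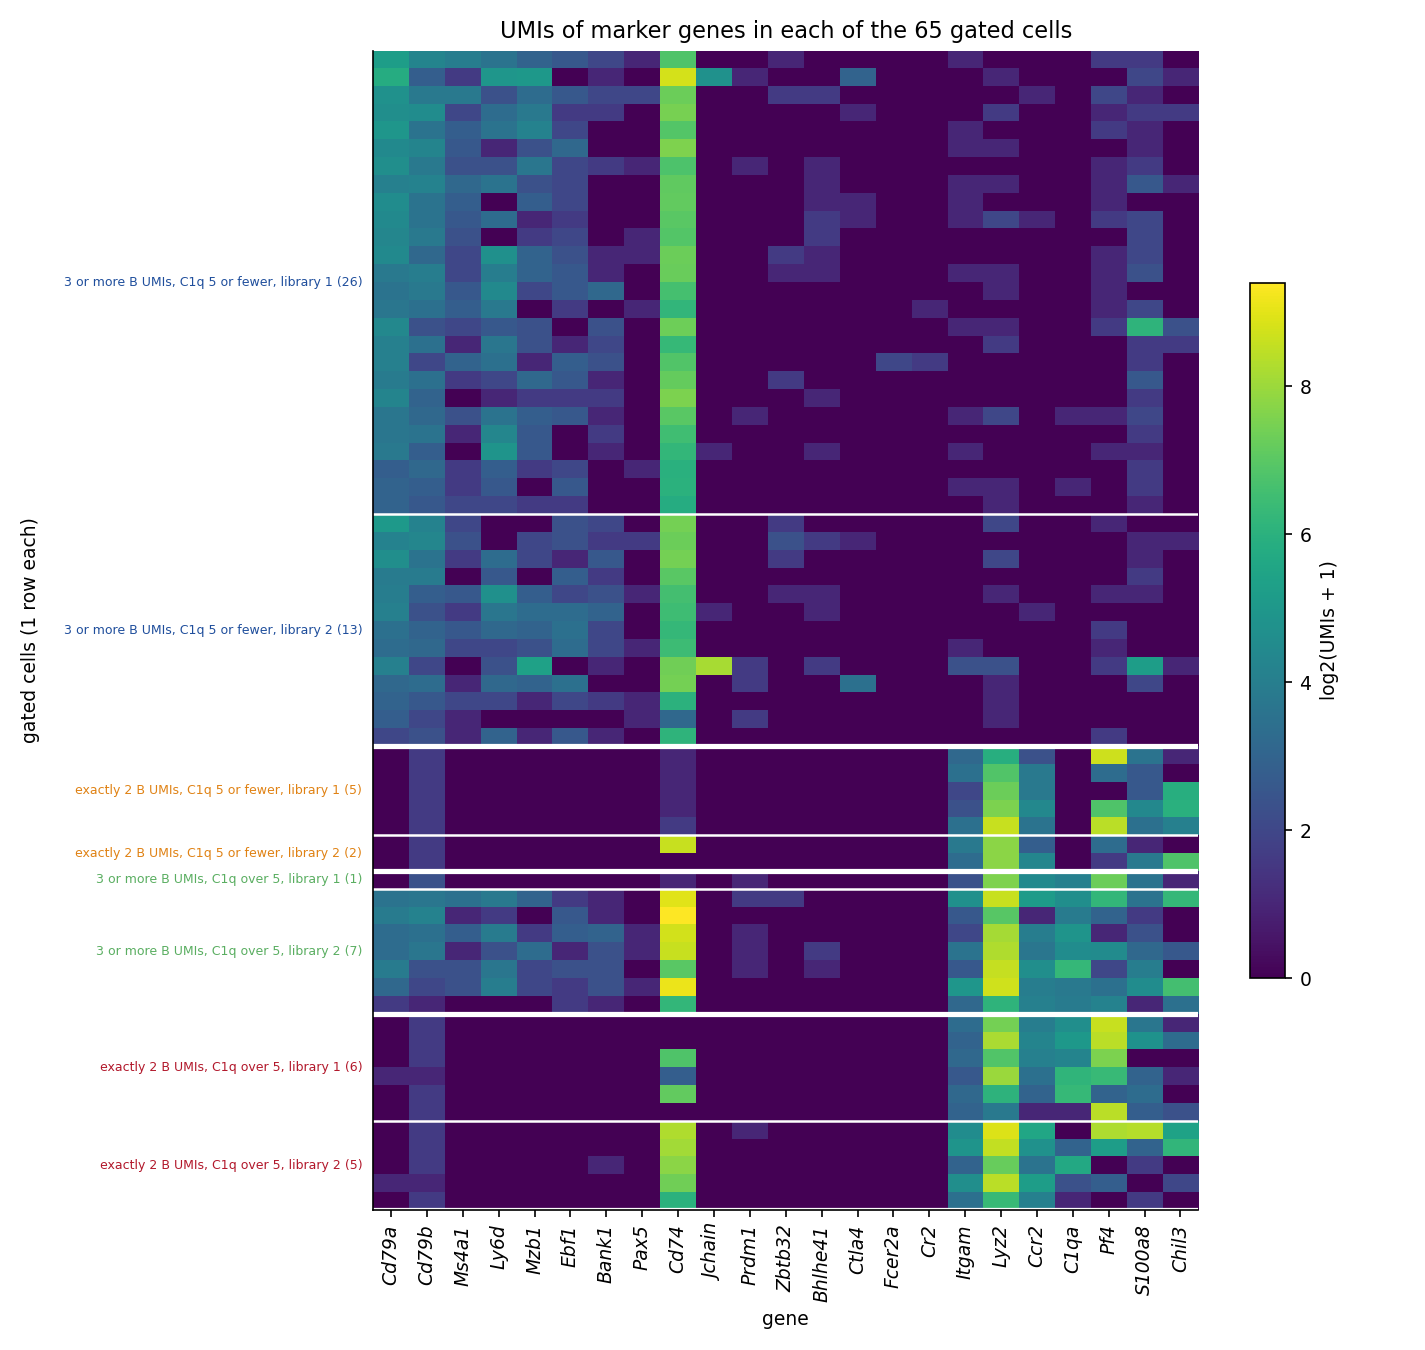
Each row is 1 gated cell and each column 1 gene, coloured by log2(UMIs + 1), and the rows are grouped by B UMIs, C1q UMIs and library. B cell genes fill the rows of the 39 cells and most of the 8 cells with B and C1q UMIs, and are almost empty in the 7 and the 11 cells with exactly 2 B UMIs, where Lyz2, Itgam and Ccr2 are filled.

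The label of B cells was checked against the 7 markers Cd79a, Cd79b, Ly6d, Mzb1, Jchain, Ebf1 and Bank1, of which the first 2 are in the rule. Of the 39 cells, 38 held at least 2 of the 5 markers outside the rule and the other cell held none, and 0 of the 7 cells held any. By these markers the label therefore holds for 38 of the 39 cells and not for the 7, which took 31.1% of the UMIs of the 46. Every comparison was made on the 46 cells, with genes summed per library, against the sums of the 2339 other kept barcodes outside the neutrophil gate (992 and 1347), and is given again for the 39 cells alone. Since the gate chooses cells on B cell genes and against C1q and neutrophil genes, calls on genes that travel with these describe what the gate holds.

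Over all genes tested, 460 of 9890 were higher in the 46 cells and 684 were lower in edgeR's quasi-likelihood test at a Benjamini-Hochberg adjusted p of 0.05, which is 4.65% and 6.92%. With DESeq2 the split turned, to 320 higher and 232 lower. Among genes named below, the calls on Bhlhe41, Nfatc1, S100a6, Syk, Klf2, Irf8, Pdcd1lg2, Cd24a, Bcl2, Tgfb1, Prdm1, Isg15, Dusp1, Pf4, Prg4, Ccl5, Cd5l and I830077J02Rik were lost with DESeq2 (adjusted p from 0.0517 for Bhlhe41 to 0.6 for Prg4). DESeq2 called 13 transcription factors higher in place of 16, 2 B-1 features in place of 4, 3 receptor signalling genes in place of 7, and 1 gene in place of 3 in the costimulation and the survival lists. In the 39 cells the counts were 465 higher and 1069 lower of 9831, or 4.73% and 10.9%. Of the genes higher in the 46 cells, 420 were also higher in the 39 (91.3% and 90.3% of the lists). Of the genes lower, 653 were shared (95.5% and 61.1%). The median log2 fold change of all genes tested was -0.19 in the 46 cells and -0.45 in the 39.

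B cell identity genes came along with the gate, and their values are a check of the label. All 13 identity genes that were tested were higher in the 46 and in the 39 cells, with a median log2 fold change of 7.69. Ly6d, a surface marker of B lineage cells, stood at 1386 and 843 CPM (UMIs per 1000000 UMIs of the class) in the 2 libraries against 1.01 and 0.115 (log2 fold change 11.06 ± 0.29 SE, edgeR adjusted p = 2.63e-290). Bank1, an adaptor of B cell receptor signalling, stood at 202 and 331 against 1.47 and 3.16 (log2 fold change 6.82 ± 0.46, edgeR adjusted p = 1.95e-45). The median cell of the 39 held 16 UMIs of Cd79a, 10 of Cd79b, 3 of Ms4a1, 8 of Ly6d, 4 of Mzb1 and 3 of Ebf1. Among macrophage gate barcodes, which should lack these genes, 1.12% in library 1 and 5.10% in library 2 held a Bank1 UMI at median depths of 11590 and 14126 UMIs. In the 39 cells the shares were 61.5% and 84.6% at median depths of 5488 and 5395 UMIs, so that the higher share was found at the lower depth.

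Promoter sequences are shown for Bank1 and Cd22, an inhibitory sialic acid receptor of B cells. Of 11 matched genes, these 2 hold the core of the EBF motif in their start region. The capitals mark that core, CCCNNGGG, which reads the same on both strands. Longer forms of the motif and forms that differ from these letters were not searched, so a window without this core can still hold such a form. Each line gives 100 bases before the RefSeq start on GRCm38.p6, 5′ to 3′ on the gene's minus strand. The Bank1 stretch is chr3:136326067-136326166 and lies before the gene. The Cd22 stretch is chr7:30879029-30879128 and lies in an intron of longer annotated Cd22 transcripts.
Bank1: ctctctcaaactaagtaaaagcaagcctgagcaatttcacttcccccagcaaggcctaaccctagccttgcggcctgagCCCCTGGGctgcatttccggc
Cd22: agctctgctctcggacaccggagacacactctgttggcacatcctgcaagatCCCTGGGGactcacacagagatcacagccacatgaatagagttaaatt
The core starts at -21 in Bank1 and at -48 in Cd22, counted from the base before the start. Windows of 300 bases (250 before and 50 after the start) were found in RefSeq for 11 of 16 genes looked up, 15 windows in all, and 2 of the 15 held the core. Of 32851 such windows of the genome, 13.7% held it, so that 2 of 15 is no excess. Whether Ebf1 acts at these genes was not tested. The octamer ATGCAAAT, searched on both strands, was in 0 of the 15 and in 1.74% of all windows, which says only that these letters are not in these windows.

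The transcription factors of the B lineage were higher as a list: 16 of 18 tested were higher in the 46 cells and 14 of 18 in the 39, with medians of 3.75 and 4.14. Ebf1, the factor that commits progenitors to the B lineage, held 82 and 64 UMIs in the 46 cells (426 and 643 CPM) and 1 UMI in each library's other barcodes. Its ratio was 7066 (exact 95% counting interval 1921 to 58893). Pou2af1, the B cell coactivator of octamer factors, held 30 and 23 UMIs against 0 and 1. Pax5, the keeper of B cell identity, held 9 and 6 UMIs against 1 and 0, and was detected in 12 of the 39 cells. Spib, an Ets factor of B cells and plasmacytoid dendritic cells, was higher by 6.60 ± 0.97 on the log2 scale (edgeR adjusted p = 5.53e-10). All 4 were higher in both libraries, which was a condition for naming called genes of a list. Klf2 and Irf8, which macrophages also use, were called in the 46 cells and not in the 39 (edgeR adjusted p = 0.688 and 0.121).

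Features of the B-1 lineage were mixed: 4 of 11 tested genes were higher and 2 were lower in the 46 cells, and 4 and 3 in the 39. Bhlhe41, on chromosome 6 from 145858243 to 145865558, held 13 UMIs in library 1 and 6 in library 2, or 67.5 and 60.2 CPM, against 0 UMIs in all other barcodes of either library. That is at least 613-fold higher against a floor of 3 counts over the other barcodes, and at least 890-fold in the 39 cells. It was detected in 10 of 26 and 4 of 13 of the 39 cells, and in 0 of 887 macrophage gate barcodes.

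Zbtb32, on chromosome 7 from 30589681 to 30598909, stood at 41.5 and 90.4 CPM against 0.643 and 1.44 (log2 fold change 5.91 ± 0.99, edgeR adjusted p = 9.65e-08; 6.28 in the 39 cells). Ctla4, a checkpoint receptor of T cells and of B-1a cells, stood at 51.9 and 110 against 0.459 and 3.51 (5.52 ± 0.81, edgeR adjusted p = 6.36e-10). Its UMIs came from few cells: 6 of the 39 held any, and the cell with the most held 10 of the 21. Nfatc1, a calcium-controlled factor needed for B-1a cells, was higher by 1.97 ± 0.62 (edgeR adjusted p = 0.0161). These 3 genes were higher in both libraries, which was a condition for naming them. A UMI of Zbtb32, Bhlhe41, Ctla4 or Pdcd1lg2, the last of them PD-L2 of the costimulation list, was present in 24 of the 39 cells. Of these cells 11 held at least 2 of the 4 genes, and 0 of the 7 cells with exactly 2 B UMIs held any. The 4 genes were picked among those called higher in the same cells, and B-1 features that were lower or not called were left out. The tally is therefore a description and no separate support for a B-1 identity.

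Cd5 had 0 UMIs in the 46 cells of both libraries, where 3 counts would be 15.6 and 30.1 CPM. The other barcodes held 0 in library 1 and 46 UMIs, or 2.64 CPM, in library 2. A Cd5 level below the limits was thus not detectable at this depth. Spn (CD43), which B-1 cells carry, stood at 31.1 and 10.0 against 8.90 and 10.2 CPM and was not called (edgeR adjusted p = 0.442).

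Itgam, the transcript of the sorted antigen, lay lower in the gated cells than in the rest of the sort. The 46 cells held 239 and 271 CPM against 424 and 584 (log2 fold change -0.99 ± 0.21, edgeR adjusted p = 8.44e-05). In the 39 cells the levels were 83.9 and 71.3, and the log2 fold change was -2.78 (edgeR adjusted p = 1.03e-11). Most of the Itgam UMIs of the 46 cells were in the 7 with exactly 2 B UMIs, which held 57 against 16 in the 39. An Itgam UMI was found in 11 of 26 cells of library 1 and 2 of 13 of library 2 in the 39, and in 93.8% and 86.3% of the other barcodes. At 1000 UMIs per cell the share was 23.1% and 0% in the 39 cells and 31.5% and 43.1% in the others. The files list a second gene under the name Itgam at the same place, from 128062640 on chromosome 7, and reads that fit both can have been left out of both. It held 1 and 0 UMIs in the 39 cells and 114 and 252 in the others. Ptprc, which encodes CD45, the other sorted antigen, was not called, at 218 and 291 CPM in the 46 cells against 147 and 327 (0.18 ± 0.23, edgeR adjusted p = 0.742). S100a6, a calcium-binding protein of B-1 cells and of macrophages, fell, by 0.68 ± 0.16 on the log2 scale in the 46 cells and by 1.38 in the 39 (edgeR adjusted p = 0.000495 and 7.52e-08).

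Of the follicular and marginal zone features of B-2 cells 1 of 7 tested was higher and 0 lower, in the 46 as in the 39 cells. The 12 genes of the list summed to 465 and 442 CPM in the 39 cells, against 178 and 247 in the other barcodes. Fcer2a was found in 1 of the 39 cells with 3 UMIs and Cr2 in 2 cells with 3 UMIs, all in library 1. None of the cells with Fcer2a or Cr2 held a UMI of the 4 genes Zbtb32, Bhlhe41, Ctla4 and Pdcd1lg2, but with 2 such cells no relation can be read. Cd55, a complement regulator of marginal zone B cells and many other cells, was the gene called, at 41.5 and 60.2 CPM against 0.459 and 1.03 (6.05 ± 1.13, edgeR adjusted p = 2.88e-06). Cxcr5, the follicle homing receptor, held a UMI in 9 of the 39 cells and stood at 31.1 and 30.1 CPM in the 46 against 0.0918 and 0.0575. Its ratio was 436 (exact 95% counting interval 90.1 to 4143), and it was not tested because it fell under the filter on low counts.

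**Figure D3:**
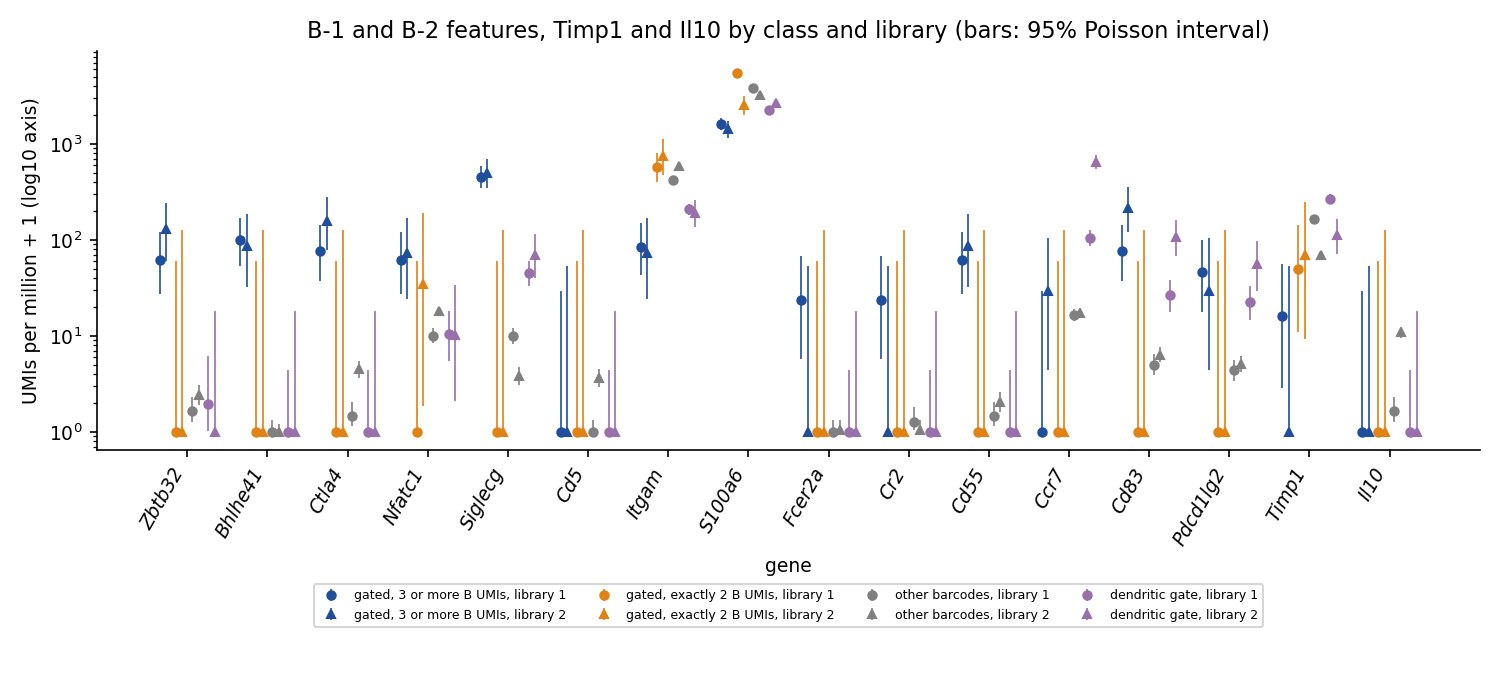
Each point is the level of 1 gene in 1 class and library, as CPM plus 1 on a log10 axis, with its exact 95% Poisson interval for counting error; circles are library 1, triangles library 2, orange the 7 cells with exactly 2 B UMIs and purple the dendritic gate. The 39 cells (blue) stand above the other barcodes (grey) in both libraries for Zbtb32, Bhlhe41, Ctla4, Siglecg and Cd55, below them for Itgam and S100a6, and at 0 for Cd5 and Il10.

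Genes of B cell receptor signalling were higher in 7 of 24 tested and lower in 0 in the 46 cells, and higher in 7 and lower in 1 in the 39. The median of the list was 0.50, and 0.56 in the 39. Siglecg, the lectin that restrains receptor signalling in B-1 cells, stood at 306 and 351 CPM against 8.996 and 2.82 (5.87 ± 0.37, edgeR adjusted p = 2.32e-54). It held a UMI in 34 of the 39 cells. Blnk, the adaptor that links Syk to downstream enzymes, was at 93.4 and 120 against 3.03 and 1.38 (5.54 ± 0.68, edgeR adjusted p = 4.39e-14). Cd81, a tetraspanin of the cell surface, was higher by 3.80 ± 0.38 (edgeR adjusted p = 1.13e-20). The kinase Syk itself was higher by 1.11 ± 0.34 (edgeR adjusted p = 0.0118). Siglecg, Blnk and Cd81 were named on the condition of 1 direction in both libraries, and Syk was chosen after its values were seen.

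In antigen presentation 7 of 12 MHC class II genes were higher and 2 lower, in the 46 as in the 39 cells, with a median of 0.69 in the 46. The largest changes were in the peptide editor H2-DM and its inhibitor H2-DO. H2-DMb2, a chain of the editor H2-DM, stood at 607 and 582 CPM against 152 and 29.3 (2.96 ± 0.21, edgeR adjusted p = 1.14e-40). Its neighbour H2-DMb1 stood at 72.7 and 80.3 against 305 and 361, and fell by 2.14 ± 0.29 (edgeR adjusted p = 7.46e-12). H2-DMb2 (34143307 to 34151555) and H2-DMb1 (34153072 to 34160230) lie side by side on chromosome 17 and are close copies, so that reads fitting both can have been dropped by the counting. H2-Ob and H2-Oa, the chains of the DM inhibitor H2-DO of B cells, were higher by 4.20 ± 0.49 and 1.89 ± 0.33 (edgeR adjusted p = 1.02e-15 and 4.22e-07). Cd74, the invariant chain, was at 17946 and 18485 against 10155 and 7604 CPM (1.01 ± 0.16, edgeR adjusted p = 6.23e-09). Of the surface chains, H2-Aa and H2-Eb1 were higher by 0.71 ± 0.16 and 0.67 ± 0.16 (edgeR adjusted p = 0.00016 and 0.000471), though in library 1 H2-Aa stood at 5133 against 5111 CPM. H2-Ab1 was not called, at 4261 and 3846 against 4396 and 2954. These levels are of the 46 cells, which mix unlike kinds. The 12 genes summed to 48908 and 37208 CPM in the 39 cells, 3381 and 29774 in the 7, and 25495 and 19933 in the other barcodes.

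Costimulatory and checkpoint genes were higher in 3 of 11 and lower in 1 in the 46 cells, and 3 and 2 in the 39. Cd83, which holds MHC class II at the surface, was at 51.9 and 151 CPM against 4.04 and 5.40 (4.24 ± 0.62, edgeR adjusted p = 4.46e-10). Pdcd1lg2, found on B-1 cells, was at 31.1 and 20.1 against 3.40 and 4.08 (2.84 ± 1.00, edgeR adjusted p = 0.0401), from 7 of the 39 cells. Cd24a was higher by 1.09 ± 0.29, from 140 against 132 CPM in library 1 and 271 against 52.8 in library 2.

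Homing genes split: 3 of 17 were higher and 5 lower in both the 46 and the 39 cells. S1pr1 and S1pr4, receptors for the lipid that draws lymphocytes out of tissue, were higher by 5.55 ± 0.88 and 3.49 ± 0.71 (edgeR adjusted p = 1.7e-08 and 2.38e-05). Cxcr4, the receptor for CXCL12, was higher by 3.30 ± 0.70 (edgeR adjusted p = 5.3e-05). Ccr2, the monocyte receptor, stood at 327 and 261 against 966 and 1031 in the 46 cells and at 15.2 and 14.3 in the 39 (log2 fold changes -1.77 and -6.21, edgeR adjusted p = 3.98e-16 and 5.52e-36). Only 3 of the 39 cells held a Ccr2 UMI.

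Survival genes were higher in 3 of 12 and lower in 1 in the 46 cells, and 3 and 3 in the 39. Tnfrsf13c, the BAFF receptor that mature B cells need, was at 145 and 100 CPM against 0.551 and 0.115 (8.53 ± 0.88, edgeR adjusted p = 1.36e-19). Bcl2 was higher by 2.15 ± 0.53 (edgeR adjusted p = 0.000824). The ligands that feed these receptors, such as BAFF, were a list of 9 genes of which 8 were at 0 in the 46 cells of library 1 and 9 in library 2, and none passed the filter.

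Among cytokines 2 of 12 were higher and 3 lower, in the 46 as in the 39 cells. Il12a, a chain shared by IL-12 and IL-35, was at 57.1 and 40.2 CPM against 0.0918 and 0.402 (7.47 ± 1.30, edgeR adjusted p = 3.88e-07). It was found in 10 of the 39 cells, whereas Ebi3, its partner in IL-35, was found in 1. Ltb, the lymphotoxin chain that B cells use to shape lymphoid tissue, was at 420 and 161 against 11.7 and 24.8 (4.10 ± 0.34, edgeR adjusted p = 7.63e-31). Il10, the cytokine of regulatory B-1 cells, had 0 UMIs in all 46 cells, and so had Il6 and Csf2 in the 39. Tgfb1 fell by 0.89 ± 0.26 on the log2 scale (edgeR adjusted p = 0.00666), from 261 and 251 to 130 and 161 CPM.

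Timp1, the metalloprotease inhibitor named in the title of the study, was low. The 46 cells held 5 and 2 UMIs, or 25.9 and 20.1 CPM, against 164.6 and 68.1 in the other barcodes (log2 fold change -2.45 ± 0.47, edgeR adjusted p = 6.29e-06). In the 39 cells the levels were 15.2 and 0, and the log2 fold change was -3.85 (edgeR adjusted p = 7.65e-06). A Timp1 UMI was found in 2 of the 39 cells. In the efferocytosis list, the genes for clearing dead cells with Timp1 among them, 0 of 13 were higher and 2 lower in the 46 (Timp1 and Lrp1), and 0 and 5 in the 39 (also Cd63, Stab1 and Cd300lb).

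Secretory genes showed 2 cells unlike the rest. Jchain, which joins the units of IgM and IgA, held 27 UMIs in library 1 and 285 in library 2, of which 26 and 284 were in 1 cell each. The Jchain-rich cell of library 1 held 31 UMIs of Mzb1, a chaperone of antibody assembly, and that of library 2 held 41, against a median of 4. Both had 0 UMIs of Ebf1 and of Pax5, and Irf4, a factor of plasma cell formation, was at 5 and 8 UMIs in them of 14 in all 39 cells. Hsp90b1, a chaperone of the endoplasmic reticulum, was at 10 and 52 UMIs. Sdc1 (CD138) was at 0 in both. The list as a whole was higher in 4 of 13 (Jchain, Mzb1, Prdm1 and Derl3) and lower in 1, in the 46 as in the 39 cells. Prdm1, the factor that drives secretion, held 9 UMIs in 6 cells (2.31 ± 0.83, edgeR adjusted p = 0.0485). When the 2 cells were left out of the 39, Prdm1 was no longer called (2.23, edgeR adjusted p = 0.162), while Mzb1 and Derl3 were (10.51 and 4.36, edgeR adjusted p = 6.99e-129 and 0.01).

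Cell division and immaturity were looked at with 2 lists. Of 15 cell cycle genes 0 were higher and 1 lower in the 46 cells, beside 4.65% and 6.92% of all genes tested. The list summed to 137 and 470 CPM in the 39 cells and to 386 and 517 in the other barcodes, so that library 2 lay near them. A UMI of Mki67, Top2a, Stmn1, Birc5, Ccnb1, Ccnb2 or Cdk1 was held by 3 of the 39 cells, at a median total of 5467 UMIs. The 8 precursor genes, among them Rag1, Dntt and Igll1, were all at 0 in the 39 cells of either library, and 1 of 2 tested, Cd93, was lower there. Interferon-stimulated genes were lower in 2 of 12 and higher in 1 in the 46 cells, and lower in 5 and higher in 0 in the 39. Rtp4 was at 20.8 and 110 CPM against 116 and 490 (-2.32 ± 0.33, edgeR adjusted p = 9.19e-11). Isg15 was at 5.19 and 241 against 56.8 and 490, with 24 of its 25 UMIs in library 2. Its log2 fold change was -1.42 in the 46 cells, -1.75 in the 39 and -3.93 without the 2 Jchain-rich cells (edgeR adjusted p = 7.97e-05, 0.000817 and 3.62e-09). Both genes were lower in the gated cells in each library, while both were higher in library 2 than in library 1 in gated and other barcodes alike.

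Of immediate early genes 1 of 12 was higher, Jund (1.31 ± 0.19, edgeR adjusted p = 5.11e-10), and 2 were lower, Fos and Dusp1 (-1.53 ± 0.22 and -1.06 ± 0.24, edgeR adjusted p = 1e-10 and 0.000145). Fos stood at 104 and 472 against 364 and 1121 CPM. Toll-like receptor genes were higher in 1 of 12 and lower in 2 in the 46, and 0 and 4 in the 39. Of Fc and complement receptors 1 of 11 was higher and 7 lower in both. The gene higher was Fcmr, the IgM receptor, at 151 and 100 CPM against 0.367 and 0 (9.48 ± 0.95, edgeR adjusted p = 8.57e-21). The activating receptor chain Fcer1g fell by 1.61 ± 0.17 in the 46 cells and by 4.51 in the 39 (edgeR adjusted p = 2.29e-19 and 9.85e-51).

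Markers of other cells were measured to see what else the gate held. Macrophage and monocyte markers were lower in 14 of 15 tested in the 46 cells and 15 of 15 in the 39, and lysosomal genes in 13 of 13 in both. The limit on C1q UMIs selects for this, so the counts are a description, beside backgrounds of 6.92% and 10.9% of all genes lower. The summed macrophage markers were at 762 and 1154 CPM in the 39 cells, 25030.5 and 27394.5 in the 7, and 20085 and 25137 in the other barcodes, with Lyz2 at 137 and 200 in the 39. The platelet markers Pf4 and Ppbp summed with 7 others to 244 and 171 in the 39 cells and 16140 and 374 in the 7. The same list stood at 15408 and 3443 in the macrophage gate and at 10787 and 2777 in the other barcodes, so a high sum does not mark platelets here. Of 9 plasmacytoid dendritic cell markers 1 was called, Lag3 (3.11 ± 0.72, edgeR adjusted p = 0.000278), a checkpoint receptor also found on B cells, from 4 of the 39 cells, and Siglech was at 0. Of 10 dendritic cell markers 9 were at 0 in the 46 cells of each library. Of 14 T and natural killer cell markers, which the rule bars in part, 13 and 14 were at 0. Mast cell and tumour or mesothelial lists passed no filter, with 7 of 8 and 9 of 10 genes at 0 in library 1, and 8 of 8 and 8 of 10 in library 2.

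Neutrophil transcripts were present throughout the sort. Of the neutrophil list 0 of 5 genes tested were called in the 46 cells. In the 26 cells of library 1 with 3 or more B UMIs the list summed to 184 UMIs. Of these cells 1 held 68 UMIs of S100a8 and 17 of S100a9 beside 27 B UMIs, within the limit of the rule. Whether this barcode is a pair of cells was not tested. S100a8, 1 of the genes the rule limits, held a UMI in 24 of 26 and 6 of 13 of the 39 cells, in 98.9% and 89.4% of macrophage gate barcodes, and in 2 of 3 and 53 of 58 T gate barcodes (at least 2 Cd3 UMIs and no B UMI). The part of these transcripts in the results was not tested.

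**Figure D4:**
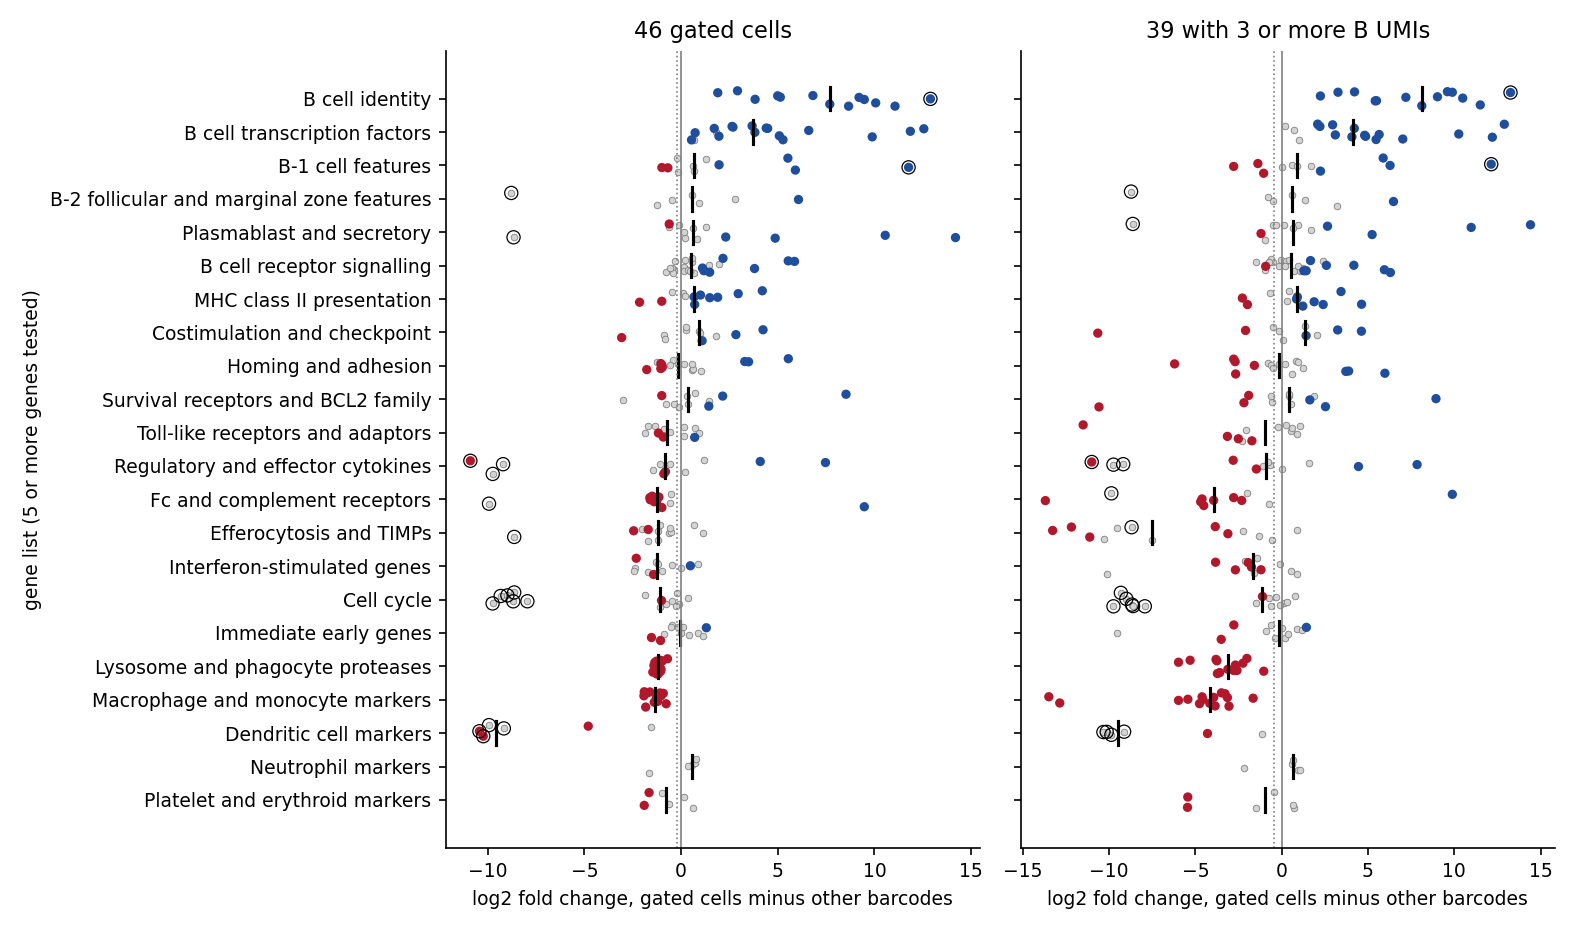
Each point is a gene of a fixed list, with its log2 fold change in the gated cells against the other barcodes for the 46 cells (left) and the 39 cells (right); blue and red points passed an adjusted p of 0.05, open black rings mark genes at 0 UMIs on 1 side, whose place depends on the prior count, and black bars are list medians. The dotted line is the median of all genes tested (-0.19 and -0.45). Macrophage and lysosome lists lie further to the left in the 39 cells, at medians of -4.17 and -3.12 against -1.34 and -1.18.

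Outside the fixed lists, the 10 genes with the largest rise held 2 that lie over B cell genes. Gm43291, a long noncoding RNA on chromosome 6 from 70719074 to 70740554, held 20 and 7 UMIs against 0 and 1 (ratio 2613, exact 95% counting interval 431 to 106994), and its interval covers Igkc and the Igkj segments of the kappa light chain on the same strand. Reads of the kappa chain and of this RNA cannot be told apart here. Gm43603, an antisense RNA on chromosome 3 from 135904344 to 136167184, lies across Bank1 on the opposite strand and was higher by 7.80 ± 0.60 (edgeR adjusted p = 1.4e-35). The strand used in counting is not given in the sources used here. Immunoglobulin heavy and light constant genes were not analysed here.

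The other 8 were single genes with no such overlap on the same strand. Zcwpw1, a histone mark reader known from meiosis, was at 285 and 512 CPM against 3.31 and 2.24 (7.09 ± 0.38, edgeR adjusted p = 1.62e-73). Snn was higher by 7.86 ± 0.63 (edgeR adjusted p = 1.49e-32). Scd1, the desaturase that makes monounsaturated fatty acids, held 10 and 14 UMIs against 3 and 3 (8.62 ± 1.08, edgeR adjusted p = 2.05e-13). Hvcn1, the proton channel of B cells and phagocytes, was at 192 and 120 against 1.65 and 2.99 (6.08 ± 0.57, edgeR adjusted p = 1.17e-23). Cmah, which makes a sialic acid that CD22 binds in the mouse, was at 51.9 and 120 against 0.551 and 0.920 (6.76 ± 0.94, edgeR adjusted p = 6.3e-11). Sfn, Trim7 and Trp53i11 were higher by 6.02, 5.93 and 5.89. All 8 were higher in both libraries and passed the test in the 39 cells as well.

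The 10 genes with the largest fall outside the lists were all at 0 UMIs in the 46 cells, so that each fold is a bound against a floor of 3 counts over the 46 cells. Ccl5, a chemokine of lymphocytes and macrophages, was at 63.4 and 454 CPM in the other barcodes and at least 29.6-fold lower. Prg4, the lubricin of serosal macrophages, was at 75.5 and 96.6 and at least 8.62-fold lower. Klrk1, an activating receptor of natural killer cells, was at least 5.42-fold lower. For the other 7 the bounds ran from 2.29-fold for Cd5l to 3.78-fold for I830077J02Rik.

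The dendritic gate was the most like class, since it holds the other cells rich in MHC class II: 88 barcodes in library 1 and 20 in library 2 with at least 2 UMIs of Cd209a, Flt3 and Mgl2, no B or Cd3 UMI and at most 5 C1q UMIs. Against it 320 of 2818 genes (11.4%) were higher in the 46 cells and 327 (11.6%) lower. In the 39 cells 419 of 2330 (18.0%) were higher and 439 (18.8%) lower. DESeq2 called 106 higher and 72 lower in the 46 cells. Identity genes were higher in 11 of 12, and transcription factors in 13 of 14, again as a check of the label. With DESeq2 these were 9 and 4, and of the genes named here H2-Ob, Cd86, Cd300lf, Ctla4, Gimap1, Gimap4 and Gimap6 were no longer called (DESeq2 adjusted p from 0.175 for Gimap4 to 0.548 for Cd86).

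Against dendritic barcodes MHC class II ran the other way. Only H2-Ob of 12 genes was higher in the 46 cells (1.53 ± 0.36, edgeR adjusted p = 0.000277) and 8 were lower, and in the 39 cells H2-Ob and H2-DMb2 were higher and 8 lower. The 12 genes summed to 48908 and 37208 CPM in the 39 cells and to 107259 and 66329 in the dendritic gate. In the 46 cells H2-Ab1 was at 4261 and 3846 CPM against 20315 and 13136 (-1.91 ± 0.41, edgeR adjusted p = 7.61e-05). H2-DMb1 was at 72.7 and 80.3 against 1202 and 1257 (-3.91 ± 0.35, edgeR adjusted p = 9.15e-21). Ccr7, the lymph node homing receptor, held 0 and 2 UMIs against 111 and 140, and Cd86 fell by 1.39 ± 0.42 (edgeR adjusted p = 0.00776). Timp1 was lower here as well, at 25.9 and 20.1 against 264 and 110 (-3.04 ± 0.46, edgeR adjusted p = 9.9e-09).

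Bhlhe41 and Ctla4 were at 0 UMIs in the dendritic gate and at least 27.7-fold and 30.7-fold higher in the 46 cells. Cd300lf, a lipid receptor that binds dying cells, was higher by 1.44 ± 0.35 (edgeR adjusted p = 0.000592) against dendritic barcodes, and in the comparison with all other barcodes its edgeR adjusted p was 0.18. Of the 10 genes with the largest rise outside the lists, 5 were of the Gimap family, GTPases of lymphocytes. Gimap4 held 62 and 32 UMIs, Gimap1 52 and 26, and Gimap6 49 and 39, all against 0 and 0, which makes them at least 137-fold, 114-fold and 128-fold higher.

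Macrophage markers turned with the 7 cells. In the 46 cells 7 of 12 were higher than in the dendritic gate and 1 lower, and in the 39 cells 0 of 9 were higher and 4 lower. Lyz2 was 1.87 higher on the log2 scale in the 46 (edgeR adjusted p = 6.98e-07) and -2.78 in the 39 (edgeR adjusted p = 1.16e-17). Itgam was not called in the 46 (0.43, edgeR adjusted p = 0.337) and was lower in the 39 (-1.08, edgeR adjusted p = 0.0375). Lysosomal genes were higher in 4 of 13 and lower in 1 in the 46, and higher in 0 and lower in 10 in the 39.

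Library 2 also carried 2 tags on antibodies to CD45, named BC2 and BC3 in the files, whose meaning the labels do not give. Of its 13 cells with 3 or more B UMIs and few C1q UMIs, 10 had more BC3 than BC2 counts, or 76.9% (exact Clopper-Pearson 95% interval 46.2 to 94.96). Their BC3 counts ran from 1232 to 6775 and their BC2 counts from 700 to 1237. All 12 members with over 5 C1q UMIs and both cells with exactly 2 B UMIs had more BC2, with 4000 to 22900 BC2 counts. BC3 was the higher tag in 3.78% (2.32 to 5.78) of macrophage gate barcodes and in 97.5% (96.6 to 98.2) of neutrophil gate barcodes. The cells with B cell genes alone and those with B cell and C1q genes thus differed in the higher tag except for 3 cells, and what the tags stand for was not tested.

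**Figure D5:**
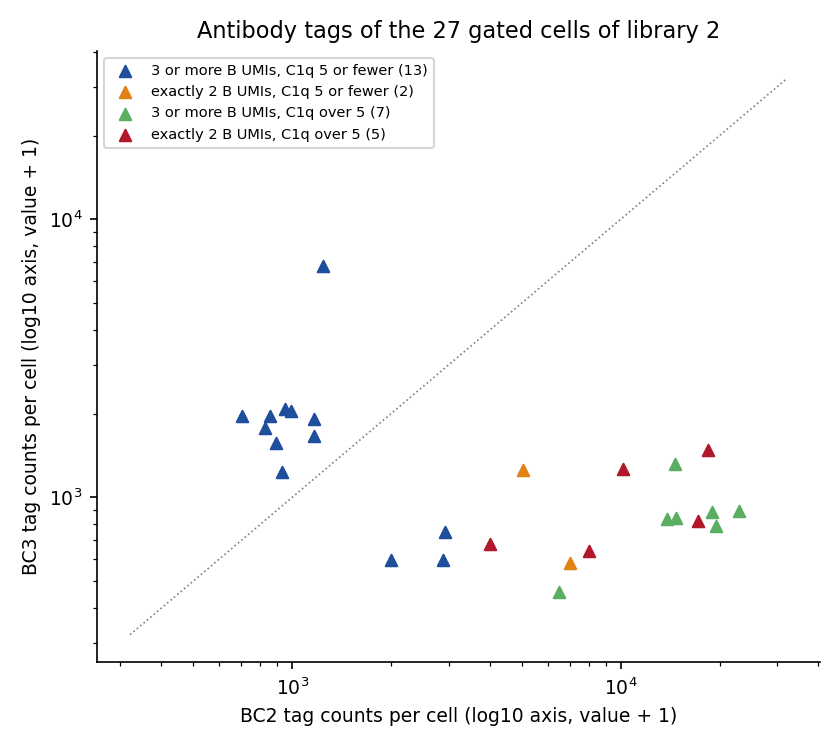
Each triangle is 1 of the 27 gated cells of library 2, with its BC2 counts on the x axis and BC3 counts on the y axis, both plus 1 on log10 axes, coloured by B and C1q UMIs; the dotted line marks equal counts. Of the 13 cells with 3 or more B UMIs and few C1q UMIs, 10 lie above the line, and all 12 cells with over 5 C1q UMIs lie below it.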

How the data were processed

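Each of the 2 libraries was deposited as a matrix of raw UMI counts per gene and barcode made by the authors with Cell Ranger 3.0.1 against mm10, per the submitters' processing notes; the header of library 1 names no software. The first listed identifier kept a symbol that 2 carry. The members, the 28 gene lists and the tests were chosen with earlier results of these data known. Named genes were the markers, up to 4 called genes of each list with the largest change, the 10 largest rises and 10 largest falls outside the lists (at least 20 UMIs), all with 1 direction in both libraries, and Itgam, Cd5, Fcer2a, Timp1, Il10 and Ptprc. S100a6, Cd74, Syk, Spn, Cxcr5, Cr2, Ebi3, Il6, Csf2, Irf4, Irf8, Klf2, Cd22, Cd93, Rag1, Dntt, Igll1, Siglech, Sdc1 and the cell cycle genes lie outside this rule and were chosen after their values were seen.

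Counts were summed per library and class and fitted with edgeR 4.0.16 (quasi-likelihood, filterByExpr, TMM, library as a block, Benjamini-Hochberg), without the 12 rule genes. With the block, the p-values rest on a spread between 2 libraries that edgeR estimates with all genes together. They do not measure how the difference of a single gene varied between the libraries. The labels do not say whether these are separate animals, though their sex-linked transcripts differ. The scripts were tested on simulated data. DESeq2 1.42.0 and other settings were alternatives. Levels are UMIs per 1000000 UMIs of a class (CPM), not divided by length, with Clopper-Pearson and Poisson 95% intervals that cover counting error only. Shares at 1000 UMIs were thinned. Library 1 held a median of 9894 UMIs per barcode and library 2 a median of 1954. Gene positions are from GENCODE M21 (GRCm38). The result of a gene is not reported here.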

Additional observations from a re-analysis of the deposited data

Results flagged for a closer look

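Barcodes outside the comparisons that were picked for 2 or more B UMIs held more B UMIs than that minimum. In the neutrophil gate of library 2, 8 barcodes had 2 or more B UMIs, 186 in all (73 of Cd79a, 62 of Cd79b and 51 of Ms4a1), with a median of 5951 UMIs per barcode against 1334 in the whole gate. In library 1 this was 1 barcode with 18 B UMIs. The rule leaves these barcodes out of the members.

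The antibody tags of library 2 were not part of any test. The tag BC3 exceeded BC2 in 10 of the 13 cells with 3 or more B UMIs and at most 5 C1q UMIs. The share was 18.9% in the other barcodes of library 2 and 97.5% in its neutrophil gate.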

How the results depend on the processing

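The share of members in library 1 was 2.42% with at least 3 B UMIs and 2.33% with at most 5 C1q UMIs as well, an alternative chosen after seeing the data. In library 2 it was 0.527% without the members with over 5 C1q UMIs, 1.97% outside the neutrophil gate and 0.457% with both limits. Against the other barcodes, 182 genes were higher and 83 lower without the library block, and 305 and 248 when the members with over 5 C1q UMIs were counted in. Without members with any C1q UMI 276 were higher. With DESeq2 232 were lower. Genes lower numbered 1069 in the 39 cells, 1066 without the 2 Jchain-rich cells and 443 in the 39 cells with DESeq2 (the last 2 added after seeing the data). Against the dendritic gate, 106 genes were higher and 72 lower with DESeq2, 145 and 123 without the block, and 212 and 134 in the 39 cells with DESeq2. There 493 were lower with no filter on low counts and 184 without members with any C1q UMI.

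Direction turned for Ppbp (0.49), Prg4 (0.55) and Serpinb2 (1.73) with the C1q-rich members counted in, and for Ptprc (-0.037) without members with any C1q UMI. Against the dendritic gate, values in the 39 cells, in those without the 2 Jchain-rich cells and in the 39 with DESeq2 were -0.45, -1.27 and -0.38 for Cd14, -0.34, -0.41 and -0.59 for Chil3, -0.79, -0.81 and -1.02 for Ctsl, -1.08, -1.38 and -1.04 for Itgam, -0.65, -0.83 and -0.59 for Lgals1, and -2.78, -2.84 and -2.73 for Lyz2. F13a1 was at -0.051 and -0.045 in the first 2 of these, and Hsp90b1 at -0.63 without the Jchain-rich cells. The cause was not tested. Of 93 named genes tested against the other barcodes, 61 kept direction and call with DESeq2, 50 without the block and 89 in the 39 cells, and the others lost the call or turned. The median fold change of all genes moved by 0.11 on the log2 scale between edgeR and DESeq2 in the 39 cells against the other barcodes, and by under 0.1 under the other scalings. With 1 library left out there is no residual degree of freedom, so only ratios were computed. Each ratio was set against the fitted value, with the SD of the 2 library ratios as the measure. A count on this measure does not show how far a gene depends on 1 library. Of the 93 named genes against the other barcodes, 31 moved by over 1 SD without library 1 and 34 without library 2, and of 83 against the dendritic gate 48 and 24. With DESeq2 37 of those 83 kept direction and call. The library block of the edgeR fits pairs the classes within a library. In library 2 the classes differed in their tags, with BC3 higher in 76.9% of the 13 cells and 18.9% of the other barcodes. Since the labels do not say what the tags mark, a difference between classes there cannot be told apart from a difference between tags.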

Other observations

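Apoe, the apolipoprotein of lipid transport that macrophages are known for, was chosen here after its values were seen. The 26 B cells of library 1 with 3 or more B UMIs held 1202 Apoe UMIs, or 9164 UMIs per 1000000 (CPM) (exact Poisson 95% interval 8653 to 9697), and the 13 of library 2 held 469, or 6683 (6092 to 7317). In each library 1 cell carried much of this, 475 of the 1202 UMIs and 280 of the 469. Without it the levels were 5944 (5520 to 6393) and 2927 (2525 to 3376), a removal chosen after seeing the data, and the level in library 2 then lay below that of the macrophage gate. Macrophage gate barcodes held 5913 and 3883 CPM, dendritic gate barcodes 160 and 438, and neutrophil gate barcodes 1193 and 643. An Apoe UMI was found in 24 of 26 and 12 of 13 of the cells, with medians of 25.5 and 12 UMIs per cell and highest values of 475 and 280. For each Lyz2 UMI the cells held 66.8 and 33.5 Apoe UMIs, the macrophage gate 0.720 and 0.349, and the neutrophil gate 0.564 and 0.298. The first 2 values keep the 2 Apoe-rich cells and rest on 18 and 14 Lyz2 UMIs. With the 2 Apoe-rich cells kept, the log2 fold change of Apoe in the 39 cells was 0.75 against the other barcodes (edgeR adjusted p = 0.0054). Against the dendritic gate it was 5.20 (edgeR adjusted p = 1.72e-118). The other barcodes held 4736 and 3553 CPM, so that library 2 lay below them without its Apoe-rich cell.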
